A study of Mus musculus with 6 samples.

Results

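The Runx1 peak list of mouse lung fibroblasts 14 days after bleomycin (D14) was compared with the list from sham-injured lungs. Every peak on chromosomes 1 to 19 was taken, 24611 from sham and 55378 from D14. These 79989 peaks come from 4 of the 6 libraries in the series: a Runx1 ChIP library and an input library for each condition. The series also holds a list from day 56, and all its lists together hold 96399 peaks over all chromosomes. All mice in both conditions carried Col1a2-CreERT2 and the mTmG reporter, in which Cre turns membrane Tomato to membrane GFP, and the GFP+ lung cells labelled fibroblast were collected. The sham group had a sham injury, with no time stated, and the D14 group had intratracheal bleomycin and was collected on day 14. The GFP label marks cells that had an active Col1a2 promoter when Cre was induced, so it covers the fibroblasts this driver reaches. Single lung cells had been fixed in formaldehyde before ChIP. The labels used here do not give the number, sex or age of the mice behind each library.

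Runx1 is a DNA-binding protein of the RUNX family, which binds a short core motif as a pair with its partner Cbfb and recruits co-activators or, through Tle proteins, co-repressors. It is best known for its part in blood formation, and it also acts in mesenchymal cells. Bleomycin injures the alveolar epithelium, and in mice the scarring that follows is strong around the second week, when fibroblasts that make collagen and other matrix are abundant. A ChIP-seq peak is a stretch of genome with more reads in the antibody library than the input predicts. A peak near a gene is neither a measure of the gene's expression nor proof that the factor controls it.

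The promoters with the highest enrichment that held a peak summit and a RUNX core are shown first, since they let a reader see the sequence under peaks of each kind. They run from 250 bases before to 50 bases after the annotated start, 5′ to 3′ on the gene's strand, from RefSeq on build GRCm38.p6 (mm10). Capitals mark the 6-base RUNX core, TGTGGT or TGCGGT, and the 6-base ETS core, CCGGAA, on either strand, so ACCACA and ACCGCA are RUNX cores and TTCCGG an ETS core read on the other strand. A match is a stretch of letters and was not shown to be a bound site. The promoters of Ndufab1 (a mitochondrial acyl carrier protein and complex I subunit, chr7:122101799-122102098, minus strand), Fam8a1 (chr13:46669227-46669526, plus strand) and Cenpw (a kinetochore protein, chr10:30200491-30200790, minus strand) were met by a peak at D14 alone.
Ndufab1: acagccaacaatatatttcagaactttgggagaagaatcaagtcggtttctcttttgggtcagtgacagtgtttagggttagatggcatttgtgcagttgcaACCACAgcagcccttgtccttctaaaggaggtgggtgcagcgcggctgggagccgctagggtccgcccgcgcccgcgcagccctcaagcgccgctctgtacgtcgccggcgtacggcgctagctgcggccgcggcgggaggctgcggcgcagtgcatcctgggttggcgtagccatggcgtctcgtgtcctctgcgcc
Fam8a1: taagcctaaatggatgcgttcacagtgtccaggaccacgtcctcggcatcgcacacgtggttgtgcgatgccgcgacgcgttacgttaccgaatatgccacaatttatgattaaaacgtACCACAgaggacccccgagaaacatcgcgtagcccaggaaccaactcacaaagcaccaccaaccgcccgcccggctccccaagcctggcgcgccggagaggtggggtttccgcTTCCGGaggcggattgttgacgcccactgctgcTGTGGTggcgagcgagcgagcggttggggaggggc
Cenpw: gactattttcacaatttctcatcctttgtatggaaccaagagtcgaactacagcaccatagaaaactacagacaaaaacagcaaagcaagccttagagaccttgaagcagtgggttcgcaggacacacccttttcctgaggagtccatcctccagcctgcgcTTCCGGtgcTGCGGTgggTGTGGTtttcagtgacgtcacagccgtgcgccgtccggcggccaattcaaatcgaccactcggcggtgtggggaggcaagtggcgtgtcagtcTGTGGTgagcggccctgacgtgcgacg
The promoters of Cycs (cytochrome c, chr6:50566520-50566819, minus strand) and Rnf44 (a RING finger protein, chr13:54693911-54694210, minus strand) were met by peaks of both lists.
Cycs: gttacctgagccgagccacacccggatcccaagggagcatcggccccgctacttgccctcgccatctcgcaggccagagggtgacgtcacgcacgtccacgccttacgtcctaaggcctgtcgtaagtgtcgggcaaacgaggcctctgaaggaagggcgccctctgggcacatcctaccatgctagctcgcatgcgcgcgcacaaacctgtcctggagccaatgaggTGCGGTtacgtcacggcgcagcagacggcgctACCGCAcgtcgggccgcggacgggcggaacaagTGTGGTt
Rnf44: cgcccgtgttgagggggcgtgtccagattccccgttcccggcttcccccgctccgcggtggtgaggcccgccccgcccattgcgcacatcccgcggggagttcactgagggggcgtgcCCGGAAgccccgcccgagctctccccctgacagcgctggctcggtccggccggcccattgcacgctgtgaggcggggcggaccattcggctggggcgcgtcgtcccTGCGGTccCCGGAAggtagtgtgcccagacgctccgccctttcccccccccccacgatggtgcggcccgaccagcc
The promoter of Lsmem1 (chr12:40199266-40199565, minus strand) was the only such promoter met by a sham peak alone.
Lsmem1: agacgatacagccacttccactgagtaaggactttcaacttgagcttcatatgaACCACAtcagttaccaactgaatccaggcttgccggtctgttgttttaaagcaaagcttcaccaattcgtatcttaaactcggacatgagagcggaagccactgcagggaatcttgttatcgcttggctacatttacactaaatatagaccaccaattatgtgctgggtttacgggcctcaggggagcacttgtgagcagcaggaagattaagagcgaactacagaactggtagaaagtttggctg
The authors' fold enrichment over input at D14 was 20.6 at Ndufab1, 18.9 at Fam8a1 and 17.4 at Cenpw, against 50.3 at Cycs and 49.8 at Rnf44. At Lsmem1 the sham fold was 3.14. Within the D14 list the 3 promoters met at D14 alone thus had lower folds than the 2 met by both lists, each set being the highest of its kind.

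The libraries differed in depth. MACS used 48816721 ChIP and 39609538 input tags for sham, and 78744701 and 49312043 for D14, so D14 had 1.61 times the ChIP tags. The larger of each pair was scaled to the smaller, which leaves an effective depth 1.24 times higher at D14. The D14 list was 2.25 times as long. The modelled fragment was 166 bp in sham and 132 bp at D14, and the median peak was 360 bp in sham and 282 bp at D14. With 1 ChIP library per condition no difference between conditions could be tested, and no p-value is given. Every interval below is a 95% Wilson interval that covers counting error only and treats peaks as independent, which neighbouring peaks are not. Depth, fragment length and injury cannot be told apart in the length of the lists, so each comparison was repeated with the D14 list cut to its 24611 highest pileups, where pileup is the authors' height of overlapping fragments at the summit. That cut removed every D14 peak below a pileup of 38, while the sham list went down to 14.

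Peaks lay at most genes that define fibroblasts, and at D14 endothelial markers were met about as often. Of 12 fibroblast marker genes, 10 had a sham peak and 11 a D14 peak in the gene body plus 10 kb, with Lum at no peak in either list; of all coding genes 62.3% had a sham peak and 75.5% a D14 peak. Markers of other cell types also had more genes with a peak at D14: endothelial 4 and 8 of 9, epithelial 3 and 6 of 10, myeloid 3 and 6 of 9, lymphocyte 2 and 3 of 8, and mesothelial 0 and 2 of 4 (sham and D14). Summed peaks were 26 and 52 at the fibroblast markers, 10 and 25 at the endothelial, 3 and 13 at the epithelial, and 9 and 12 at the myeloid ones. With the D14 list cut to the length of the sham list, genes with a D14 peak were 10 for fibroblast, 5 for endothelial, 3 for epithelial, 3 for myeloid, 3 for lymphocyte and 0 for mesothelial markers. Of all coding genes 66.0% had a D14 peak in that cut. Krt8, Epcam and Nkx2-1 (epithelial), Kdr, Cdh5, Tie1 and Cldn5 (endothelial) and Ptprc, Csf1r and Itgam (myeloid) had a D14 peak and no sham peak. Cdh1, Sftpb, Sftpa1 and Krt18 (epithelial), Emcn (endothelial) and Marco, Lyz2 and Adgre1 (myeloid) had none in either list. Of the 9 sham peaks at myeloid markers, 3 met no D14 peak (33.3%, 12.1 to 64.6), where 8.39% of all sham peaks met none. The same count was 4 of 26 at fibroblast, 1 of 10 at endothelial, 0 of 3 at epithelial and 0 of 3 at lymphocyte markers. The part of other cells in the D14 list was not tested.

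Of the 55378 D14 peaks, 32655 (59.0%, interval 58.6 to 59.4) shared no base with a sham peak and are called D14-only. Of the 24611 sham peaks, 2064 (8.39%, 8.05 to 8.74) met no D14 peak and are called sham-only. The D14 list thus held nearly all of the sham list and a large further set. At equal length, where mostly 1-to-1 overlaps make the unmatched counts near equal by construction, 6643 D14 peaks (27.0%, 26.4 to 27.6) and 6331 sham peaks (25.7%, 25.2 to 26.3) had no partner. D14-only peaks were low: their median pileup was 27 and fold 4.75, against 67 and 9.44 for shared D14 peaks. In the sham list the order was the same: sham-only peaks had 23 and 3.98, against 38 and 5.25 for shared sham peaks.

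The strongest peaks of each list were in the other list but did not rank alike. Of the 5000 highest D14 pileups 12 (0.24%) were absent from the full sham list, and of the 5000 highest sham pileups 0 were absent from the D14 list, with an upper interval bound of 0.0768%. When both lists were cut to the same number, the share of D14 peaks with no partner was 20.65% at 10000 and 24% at 20000, and it was higher in short cuts, at 38.9% for 2000, 50.1% for 1000 and 75.6% for 250. Over the 20569 peaks that met exactly 1 peak of the other list, pileup correlated across peaks with a Spearman coefficient of 0.787 and fold with 0.548. Peaks of 1 pair of libraries share depth and base composition and are not replicates, so these are descriptions.

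**Figure D1:**
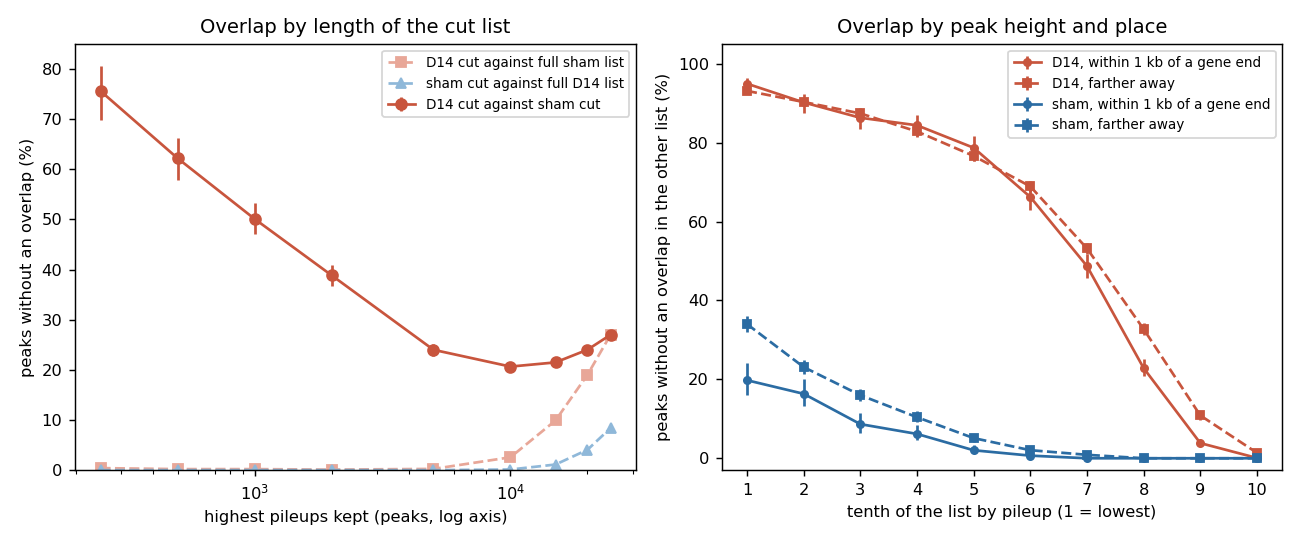
Left: share of peaks (%) with no partner against the number of highest pileups kept (log axis), with both lists cut or with the other list whole. Right: share with no partner by pileup within each list in 10 equal classes, for peaks within 1 kb of a gene end and farther away, with 95% Wilson intervals; the share is highest in the lowest classes, and D14 lies far above sham.

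D14-only peaks lay mostly away from gene ends, as low D14 peaks did as a whole. The summit was within 1 kb of an annotated gene end in 13.1% (12.8 to 13.5) of D14-only peaks and in 40.3% of shared D14 peaks, and the same contrast held in sham, at 12% of sham-only and 41.1% of shared peaks. Of the D14-only peaks, 45.2% were inside a gene and 41.6% outside any gene, both farther than 1 kb from an end, and 8.90% were more than 100 kb from a gene end. At equal length the D14-only peaks were nearer to ends, at 17.8%, but still below the 47.8% of shared ones. The gene table gives no strand, so a gene's start and its other end count alike. Per chromosome, D14 held 2.04 (chromosome 11) to 2.56 (chromosome 13) times the sham peaks, and the D14-only share ran from 55.1% to 64.2% on the same chromosomes.

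Among 20661 protein-coding genes, 12865 (62.3%) had a sham peak and 15592 (75.5%) a D14 peak. A D14 peak with no sham peak stood at 2749 genes (13.3%), and a sham peak with no D14 peak at 22 (0.106%). At equal length these were 1100 (5.32%) and 327 (1.58%). A D14-only peak stood at 11229 genes (54.3%) and a sham-only peak at 1228 (5.94%). More D14 than sham peaks were found at 10974 genes (53.1%) and fewer at 516 (2.5%). At equal length 3751 (18.2%) had more and 2676 (13.0%) fewer, so the direction at a typical gene rests on the list length. The 274 genes with 10 or more D14-only peaks were long, with a median of 290 kb against 17.5 kb for all coding genes. Per megabase of gene window, D14-only peaks were densest at short genes, at 25.3 in genes under 10 kb and 7.36 in genes over 500 kb. The 45 genes with 5 or more sham-only peaks were short, with a median of 11 kb. The ratio of D14 to sham peaks per gene went from 1.60 in genes under 10 kb to 3.10 in genes over 500 kb, and at equal length from 0.987 to 0.943.

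**Figure D2:**
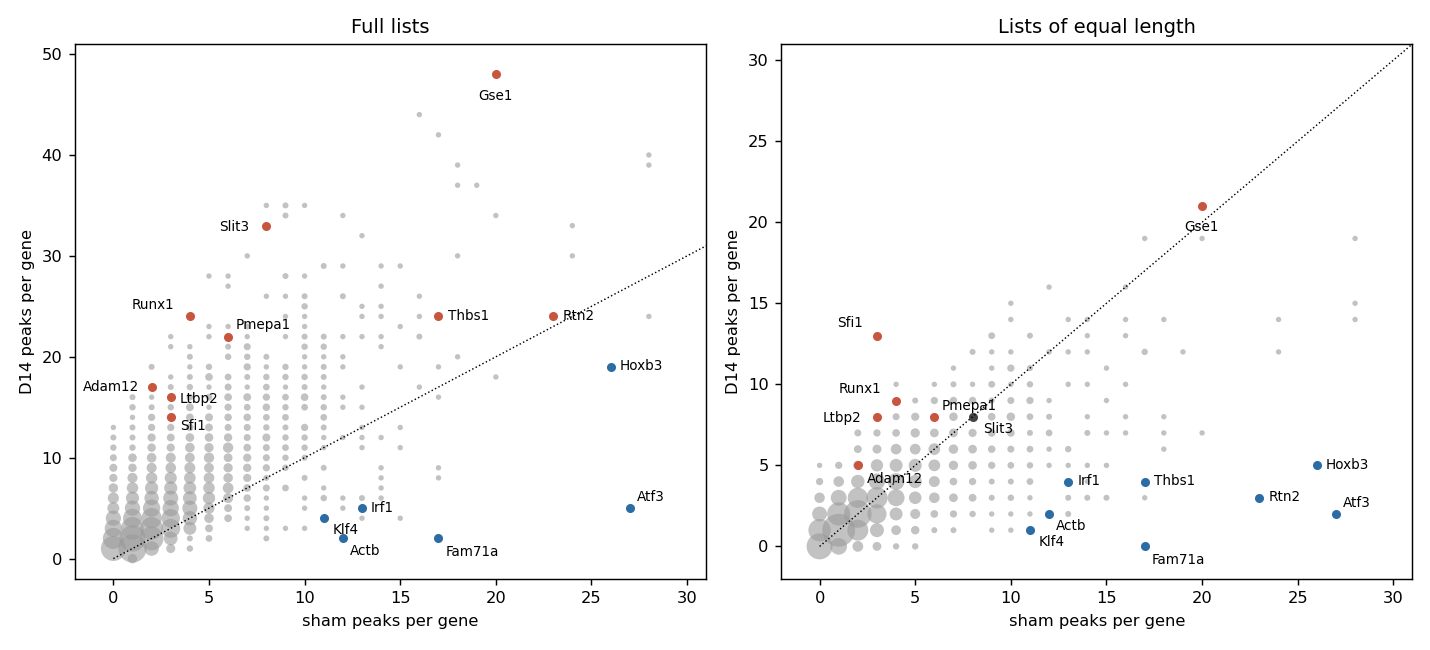
Each point is a protein-coding gene placed by its sham peaks (x) and D14 peaks (y), with larger grey points for more genes, for the full lists (left) and at equal length (right); the dotted line marks equal numbers. Red genes have more D14 peaks and blue genes fewer; Atf3, Fam71a and Actb lie far below the line in both panels and Runx1, Ltbp2 and Sfi1 above it in both.

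The genes with the most D14-only peaks were mostly large and had varied functions. Arhgap26, a GTPase-activating protein, had 16 sham and 44 D14 peaks, 30 of them D14-only. Gse1 had 20 and 48, with 29 D14-only. Slit3, a secreted ligand of Robo receptors, had 8 and 33, and the cytoskeletal guidance gene Nav2 had 9 and 34. Foxp1, a forkhead repressor, had 10 and 35, and the cyclic AMP phosphodiesterase Pde4d had 9 and 35. Tns3, a focal adhesion protein, had 9 and 35, Wwox 8 and 35, Frmd4a 9 and 34, and Pakap 17 and 42. At equal length these counts shrank to 16 at Arhgap26, 21 at Gse1, 8 at Slit3, 10 at Nav2, 11 at Foxp1, 9 at Pde4d and 11 at Tns3, all within 2 of the sham number. The D14-only peaks at these genes were therefore mostly below the pileup cut.

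Another set of genes had more D14 peaks at equal length too. Sfi1, a centrosomal protein, went from 3 sham to 13 D14 peaks, but the highest fold of its D14-only peaks was 4.41. Runx1 itself had 4 and 9. Ltbp2, a matrix protein of the latent TGF-beta binding family, had 3 and 8, and Ptges, which makes prostaglandin E, had 3 and 8. The chondroitin sulfotransferases Chst3 and Chst15 each had 2 and 7, Cnksr3 2 and 7, Sdk2 4 and 10, and Adamtsl3 0 and 5. These genes thus kept more D14 peaks among the high pileups.

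The genes of the RUNX family were among those with added D14 peaks. Runx1 (chr16:92601466-92826074) had 4 sham peaks, all of which were shared, and 24 D14 peaks, 20 of them D14-only. Its highest fold, at the same place in both lists (chr16:92697179-92697865 at D14), was 10.0 in sham and 20.2 at D14. Over all shared peaks the median fold was 5.25 in sham and 9.44 at D14. Folds of the 2 lists, here and below, are thus on unlike scales. Bases under Runx1 peaks were 1782 and 7224. The highest D14-only peaks in Runx1 had folds of 10.4 (chr16:92620794-92621100) and 9.72 (chr16:92788387-92788946), inside the gene toward its lower and its higher coordinate end. Runx2, the RUNX factor of bone, had 3 and 14 peaks, 11 of them D14-only, and 5 at equal length. Runx3 had 0 and 4, with 1 at equal length, and the DNA-binding partner Cbfb had 3 and 6, with 2 at equal length. Of the co-repressors, Tle1 had 2 and 4, Tle3 7 and 10, Cbfa2t3 4 and 9, and Runx1t1 3 and 6. Across the 14 genes of the RUNX list, 60 of 95 D14 peaks were D14-only (63.2%, 53.1 to 72.2).

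To read such shares, each was set beside the D14-only share of all D14 peaks in the same of 20 pileup bins and the same class of distance to a gene end, called the share of like peaks. For the RUNX list that was 62.0%, so the family as a whole stood where its low and gene-distal peaks put it. Over all coding genes the values were 55.5% and 55.3%. Families were counted without repeats, with a peak near 2 members counted once, and 79 of 83 families held at least 20 D14 peaks. Their D14-only shares ran from 25.9% to 84.4% with a median of 56%, and 30 of 79 lay above their like peaks. Only 2 intervals lay wholly above the like share, those of fibrotic fibroblast markers and potassium channels, and 9 lay wholly below. More D14 than sham peaks were found in 78 of 79 families, but at equal length in 36, with fewer in 41.

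**Figure D3:**
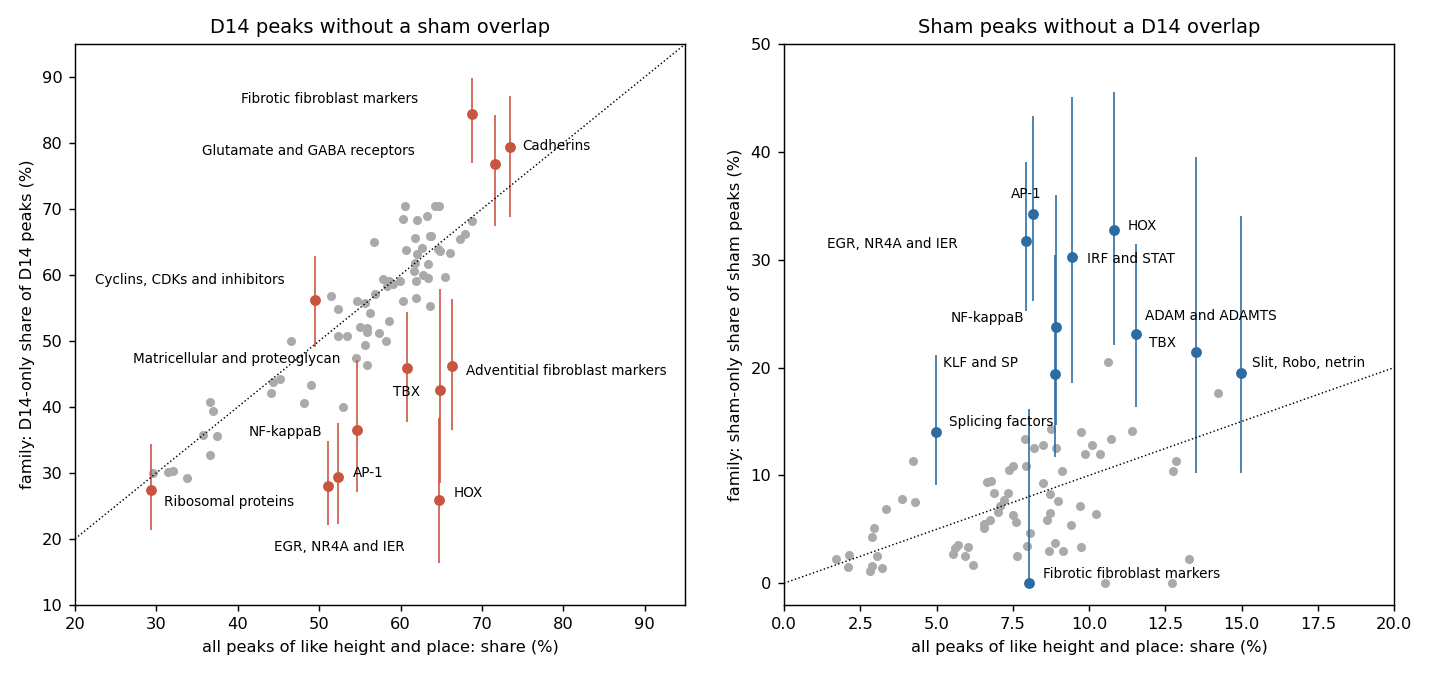
Each point is a gene family with at least 20 D14 peaks, placed by the share of like peaks (x, %) and its own share (y, %) without a partner, for D14 peaks (left) and sham peaks (right); bars on named families are 95% Wilson intervals and the dotted line marks equality. Fibrotic fibroblast markers lie highest at left and at 0 at right, while AP-1, HOX and the EGR, NR4A and IER genes lie far below the line at left and far above it at right.

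Fibrotic fibroblast markers had the highest D14-only share of the families with at least 20 D14 peaks. Of 122 D14 peaks at 16 genes, 103 were D14-only (84.4%, 77.0 to 89.8) against 68.8% for like peaks, and 0 of their 20 sham peaks were sham-only. At equal length 24 of 40 D14 peaks had no partner (60.0%, like peaks 37.4%). Without Runx1, which is on the list, the share was 84.7% (83 of 98). All 16 genes had more D14 than sham peaks, where 53.1% of coding genes did, and at equal length 9 had more and 1 fewer, where 18.2% and 13.0% did. The list is of genes known to mark fibroblasts in injured lung, and it was chosen with earlier results of these data known.

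Within that list the numbers varied widely. Pmepa1 (chr2:173224458-173276731), a transmembrane protein induced by TGF-beta that limits its signal, had 6 sham and 22 D14 peaks, 17 of them D14-only and 8 left at equal length. Its highest fold was 11.2 in sham and 19.4 at D14 (median of all shared peaks 5.25 and 9.44), and bases under peaks were 3113 and 9809. Adam12, a metalloprotease of activated mesenchymal cells, had 2 and 17 peaks, 396 and 4314 bases, and 5 peaks at equal length. Ltbp2 had 3 and 16 peaks, 13 of them D14-only, with 1349 and 5512 bases. Ncam1, a cell adhesion molecule, had 0 and 11, of which 1 remained at equal length. The fibril-associated collagen gene Col12a1 had 2 and 8 peaks and Col8a1 0 and 4. The tendon transcription factor gene Scx had 0 and 5. Low in the list were the matrix genes Fn1 (1 and 4), Tnc (0 and 2), Spp1 (0 and 2) and Postn (1 and 2), the Wnt modulator Sfrp1 (1 and 2), and Cthrc1, Grem1 and Lrrc15 (0 and 1 each). Of these, Cthrc1, Grem1, Lrrc15, Spp1 and Postn had 0 D14 peaks at equal length, so the D14 peaks of these 5 genes were all below the pileup cut, and the list's D14 peaks above it lay mostly at Runx1, Pmepa1, Adam12 and Ltbp2.

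**Figure D4:**
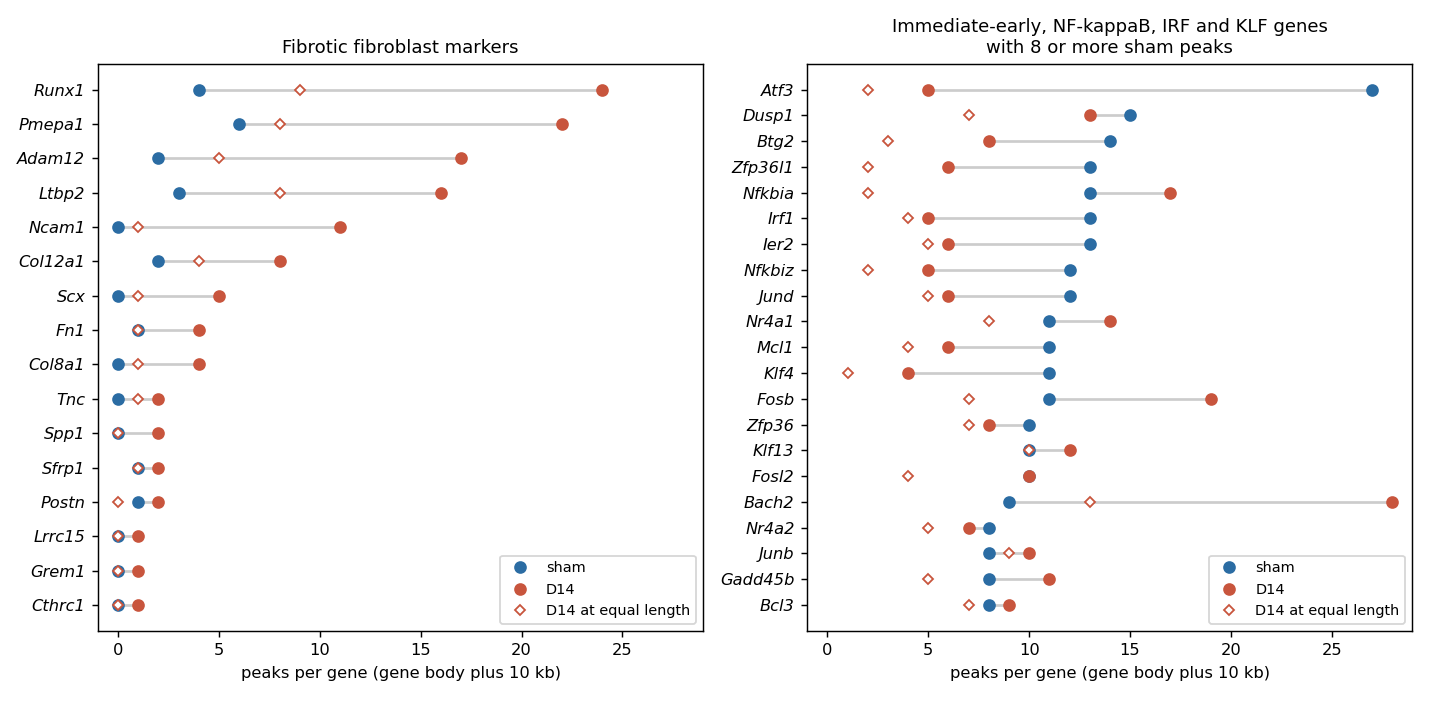
Peaks per gene in sham, at D14 and at D14 with lists of equal length, for the 16 fibrotic fibroblast markers (left) and for the 21 AP-1, EGR, NR4A, IER, NF-kappaB, IRF, STAT, KLF and SP genes with at least 8 sham peaks (right). At left every D14 number is above sham, led by Runx1 with 24; at right Atf3 goes from 27 to 5 and most numbers at equal length lie below sham.

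Other fibroblast and matrix lists lay nearer to, or below, their like peaks. Alveolar fibroblast markers had 76 of 120 D14 peaks D14-only (63.3%, like peaks 66.1%), with Limch1 at 5 sham and 22 D14 peaks, Spon1 at 6 and 16 and the integrin gene Itga8 at 1 and 7. Adventitial fibroblast markers were lower, at 43 of 93 (46.2%, 36.5 to 56.3, like peaks 66.3%). At equal length 1 of these 20 genes had more D14 peaks and 12 fewer, where 18.2% and 13.0% of all coding genes did. Among these Col15a1 had 6 and 20 peaks, while Dpt (dermatopontin) had 5 and 3 and the eosinophil chemokine gene Ccl11 2 and 1. Fibrillar collagens had 35 of 66 (53.0%, like peaks 58.6%): Col1a1 had 6 and 8 peaks, Col1a2 3 and 4, Col3a1 3 and 4, and Col5a1 7 and 14. In Col1a2 and in Col3a1, 2 of the 4 D14 peaks were D14-only and 1 sham peak was sham-only. The fibrillar collagens together had 36 and 66 peaks. Matricellular and proteoglycan genes had 61 of 133 (45.9%, 37.6 to 54.3; like peaks 60.8%), with Sparc at 2 and 9 and Thbs1, an activator of latent TGF-beta, at 17 and 24, of which 4 remained at equal length. Above their like peaks were laminins and basement membrane genes (68.9%, like peaks 63.3%, and at equal length 38.6% and 34.7%) and the other, mostly non-fibrillar collagens (65.9%, like peaks 63.7%).

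Genes of TGF-beta signalling had more D14 peaks in the full lists but not at equal length. Of 29 genes 24 had more and 2 fewer, where 53.1% and 2.5% of all coding genes did, and 126 of 246 D14 peaks were D14-only (51.2%, like peaks 57.4%). The ligand gene Tgfb1 had 6 and 10 peaks and the latent binding protein gene Ltbp1 10 and 25. Of the receptors, Tgfbr2 had 2 and 9. The signal transducer Smad3 had 14 and 22, the inhibitors Smad7 9 and 16 and Smad6 3 and 8, and Smurf2, which targets the pathway's proteins for degradation, 4 and 1. At equal length 10 of the 29 genes had more D14 peaks and 14 fewer, where 18.2% and 13.0% of all did.

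WNT, ETS, cell cycle and potassium channel genes had D14-only shares above those of like peaks. WNT pathway genes had 155 of 227 D14 peaks D14-only (68.3%, like peaks 62.0%), and 52 of 59 genes had more D14 peaks and 0 fewer (53.1% and 2.5% of all coding genes). At equal length 15 had more and 10 fewer (18.2% and 13.0%). Among them the ligand genes Wnt5a and Wnt5b had 1 and 7, and 2 and 10, and the transcription factor genes Tcf7l1 and Tcf7l2 had 3 and 14, and 4 and 12. At equal length Wnt5a and Wnt5b had 2 D14 peaks each, Tcf7l1 6 and Tcf7l2 4. ETS transcription factor genes had 65 of 100 (65.0%, 55.3 to 73.6; like peaks 56.8%), with Ets1, a common partner of RUNX proteins on DNA, at 4 and 18, Etv6 at 6 and 18 and Elk3 at 0 and 10. At equal length 10 of 22 ETS genes had more D14 peaks and 2 fewer. Cyclins, their kinases and inhibitors had 110 of 196 (56.1%, 49.1 to 62.9; like peaks 49.5%), with Cdk6 at 0 and 9 and Cdk14 at 5 and 28. Both intervals reached below the like share, and WNT's (62.0 to 74.0) met it. Potassium channels had 186 of 264 (70.5%, 64.7 to 75.6; like peaks 64.2%), at equal length 34.6% against 32.9%. Hedgehog genes (56.5%, like peaks 62.0%) and interleukins with their receptors (61.7%, like peaks 63.3%) lay below, although the Hedgehog effector Gli2 had 7 and 23 peaks and the IL-6 family cytokine genes Il11 and Lif 2 and 7, and 1 and 10.

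The sham list held its own peaks at immediate-early genes, which cells switch on within minutes of stimulation. AP-1 genes had 39 of 114 sham peaks sham-only (34.2%, 26.1 to 43.3) against 8.15% for like peaks, and 39 of 133 D14 peaks D14-only (29.3%, 22.3 to 37.6) against 52.3%. EGR, NR4A and IER genes, with other early response genes, had 54 of 170 sham-only (31.8%, 25.2 to 39.1; like peaks 7.92%) and 53 of 189 D14-only (28%, 22.1 to 34.8; like peaks 51.1%). IRF and STAT genes had 13 of 43 sham-only (30.2%), NF-kappaB genes 14 of 59 (23.7%) and KLF and SP genes 13 of 67 (19.4%), each with like peaks between 8.88% and 9.45%. The shares rested on single loci to unlike degrees. Without Atf3 AP-1 was 19.5% (17 of 87, like peaks 6.99%). Without Btg2 the EGR, NR4A and IER genes were at 28.2% (44 of 156, like peaks 7.92%). Without Nfkbiz NF-kappaB was 12.8% (6 of 47, like peaks 8.45%). Without Irf1 IRF and STAT was 10.0% (3 of 30, like peaks 7.76%), and without Klf4 KLF and SP was 8.93% (5 of 56, like peaks 7.05%). In NF-kappaB, in IRF and STAT and in KLF and SP most of the excess thus lay at a single gene. The D14-only shares of AP-1 and EGR, NR4A and IER were 66.2% and 56.1% when an overlap had to cover 50% of both peaks. Over all D14 peaks the share under that rule was 67.3%, near the AP-1 value. At these genes D14 peaks thus often touched a sham peak of another size.

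Atf3 (chr1:191170296-191183333), a stress-induced AP-1 gene, had the most sham-only peaks of all genes. It had 27 sham peaks over 14250 bases and 5 D14 peaks over 2733 bases, and 22 of the sham peaks were sham-only. Its highest peak was in both lists (chr1:191182308-191184025 in sham) with a pileup of 142 in sham and 157 at D14, and a fold of 16.3 and 9.89. The highest sham-only fold there was 4.99, so the sham-only peaks were low peaks around a shared high one. Fam71a, the neighbour of Atf3, had 17 and 2 peaks, which the 2 genes largely share.

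Some other early genes also had fewer peaks at D14, or more bases under sham peaks. Irf1, an interferon response factor, had 13 sham and 5 D14 peaks over 10718 and 3095 bases. Its highest fold was 10.8 in sham and 17.2 at D14 (median of all shared peaks 5.25 and 9.44). Btg2, an anti-proliferative gene, had 14 and 8 over 11393 and 2908 bases, and its highest sham-only peak had a fold of 7.61. Fos and Jun had 0 sham-only peaks. Klf4 had 11 and 4 over 6647 and 2565 bases, and Nfkbiz, a nuclear co-regulator of NF-kappaB, had 12 and 5. Ier2 had 13 and 6, and Zfp36l1, which destabilises mRNA, 13 and 6. Jund had 12 and 6 over 12344 and 4076 bases. Fos had 5 and 6 peaks but 9814 and 4512 bases, Jun 3 and 5 but 6541 and 3622, and Fosb 11 and 19 but 16376 and 8026. Rtn2, beside Fosb, had 23 and 24 peaks over 22121 and 7094 bases. Actb, the gene of a cytoplasmic actin, had 12 and 2 over 6569 and 2241 bases. At Fos, Jun and Fosb the D14 list thus had more peaks over less sequence. In the full lists most members had more D14 peaks: 13 of 19 AP-1 genes (2 fewer) and 18 of 30 EGR, NR4A and IER genes (8 fewer). So did 12 of 15 NF-kappaB, 12 of 16 IRF and STAT and 15 of 25 KLF and SP genes, with 2 fewer in each. Over all coding genes 53.1% had more and 2.5% fewer. At equal length 2 AP-1 genes had more and 9 fewer, and 5 and 20 EGR, NR4A and IER genes did. NF-kappaB had 3 and 6, IRF and STAT 1 and 8, and KLF and SP 4 and 8 (18.2% and 13.0% of all). Among members with more, Bach2, a repressor of the AP-1 family, had 9 and 28 peaks with 13 at equal length, Nfkb1 5 and 14, and the phosphatase gene Dusp10 5 and 12.

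Bases under peaks were therefore compared gene by gene, a measure added after the data were seen. Sham had more bases than D14 at 1034 of 20661 coding genes (5.00%), although sham peaks were longer at the median. It had more at 16 of 30 EGR, NR4A and IER genes, 8 of 19 AP-1 genes, 13 of 39 HOX genes, 5 of 16 IRF and STAT genes, 4 of 15 NF-kappaB genes, 6 of 25 KLF and SP genes and 5 of 20 adventitial markers. Neighbouring genes share peaks through their 10 kb windows, as in the HOX clusters, so such genes are not separate counts. Sham had more at 0 of 16 fibrotic markers, 0 of 11 fibrillar collagens, 1 of 59 WNT genes and 2 of 29 TGF-beta genes. The contrast between early genes and fibrotic markers was thus seen in covered bases and in peak numbers at equal length. In the full lists most members of both had more D14 peaks.

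HOX genes, which set position along the body axis, had the lowest D14-only share of the families with at least 20 D14 peaks. They held 58 peaks in each list, 15 D14-only (25.9%, 16.3 to 38.4; like peaks 64.8%) and 19 sham-only (32.8%, 22.1 to 45.6; like peaks 10.8%). At equal length 1 of 23 D14 peaks and 37 of 58 sham peaks had no partner. Under a reciprocal overlap of 50% the D14-only share of HOX genes was 67.2% and that of all D14 peaks 67.3%. The low HOX share was thus not seen under that rule. The sham peaks lay in 2 clusters: Hoxb3 (chr11:96307101-96347930) had 26 sham and 19 D14 peaks over 13088 and 4271 bases, and Hoxb2 10 and 5. In the Hoxa cluster Hoxa3 had 28 and 24 over 13598 and 8404 bases, and Hoxa2 14 and 7. Genes of a cluster share peaks, so these numbers overlap. The Hoxc and Hoxd genes on the list had 0 sham peaks and 0 to 2 D14 peaks each. The sham-only HOX peaks thus lay in parts of the Hoxa and Hoxb clusters.

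**Figure D5:**
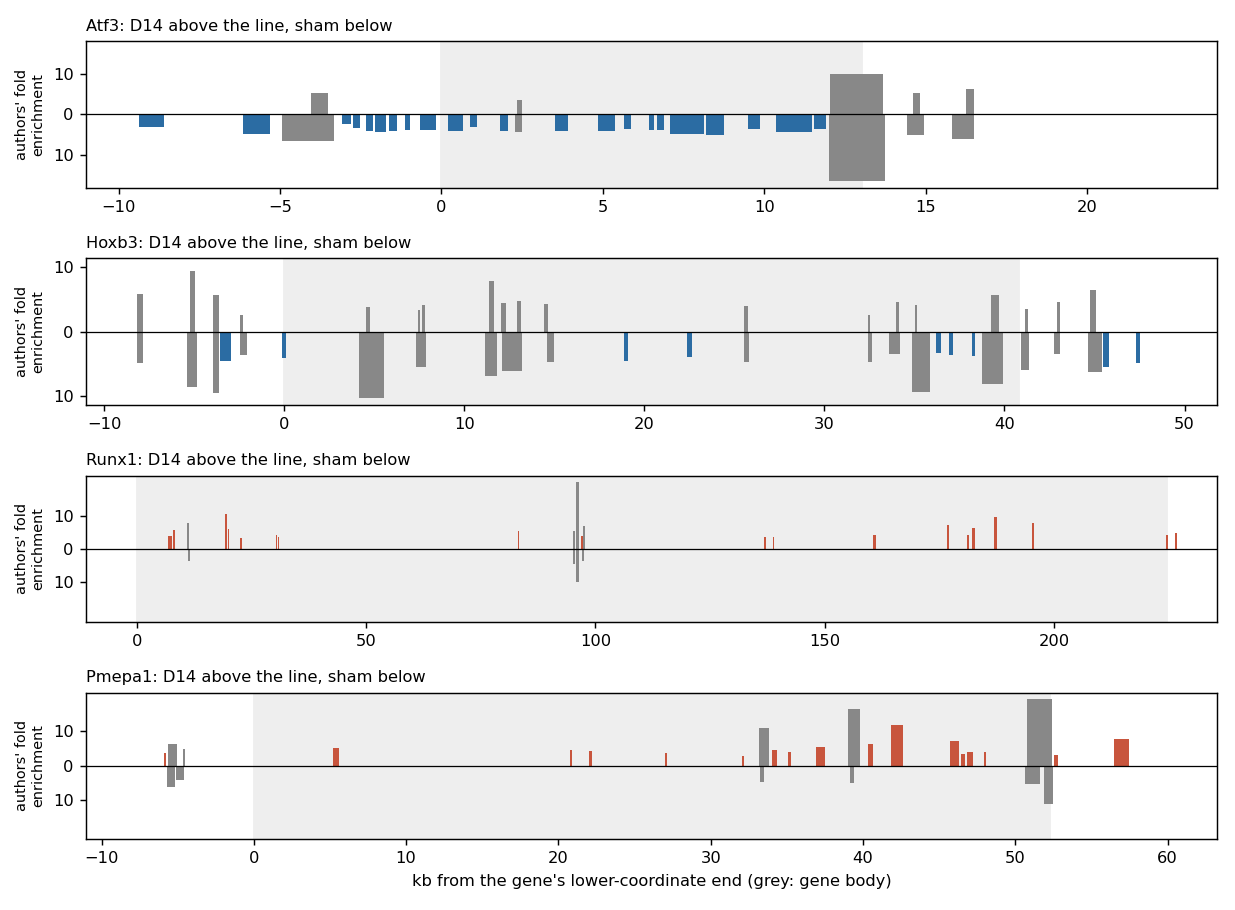
The authors' fold enrichment of each peak (D14 above the line, sham below) against distance in kb from the gene's lower-coordinate end at Atf3, Hoxb3, Runx1 and Pmepa1; grey bars met a peak of the other list, coloured bars did not, and the shaded span is the gene. Sham-only peaks crowd around shared ones at Atf3 (22 of 27), whereas D14-only peaks are spread over Runx1 (20 of 24) and Pmepa1 (17 of 22).

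Some other groups also had sham-only shares above those of like peaks. ADAM and ADAMTS genes had 27 of 117 sham peaks sham-only (23.1%, like peaks 11.5%). Without Adamtsl4, which had 17 sham and 9 D14 peaks, they had 15 of 100 (like peaks 10.6%). Splicing factors had 18 of 128 (14.1%, like peaks 4.98%). T-box genes had 6 of 28 sham-only (21.4%, 10.2 to 39.5, like peaks 13.5%), an interval that held the like share. Of their D14 peaks 17 of 40 were D14-only (42.5%, 28.5 to 57.8, like peaks 64.8%). Nr2f2, a nuclear receptor of venous and mesenchymal cells, had 13 and 4 peaks. The largest shortfalls at equal length, besides Atf3 (27 and 2), Fam71a (17 and 0), Hoxb3 (26 and 5), Hoxa3 (28 and 15) and Rtn2 (23 and 3), were at Mknk2 (17 and 3), Thbs1 (17 and 4), Adamtsl4 (17 and 4), Arid5b (20 and 7) and Rad51b (28 and 14).

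Housekeeping families had low D14-only shares. Ribosomal protein genes had 49 of 179 D14 peaks D14-only (27.4%, like peaks 29.4%), mitochondrial ribosome genes 29.2% (33.7%), oxidative phosphorylation genes 29.9% (29.6%), splicing factors 30.2% (31.4%) and DNA replication genes 30.3% (32.0%). Their values were close to those of like peaks, which are high and at gene ends. At the other end, cadherins had 58 of 73 (79.5%, 68.8 to 87.1; like peaks 73.4%), with Cdh23 at 3 and 15 peaks, and glutamate and GABA receptors 73 of 95 (76.8%, 71.6%). Grouping genes by the letters of their symbols gave 100 families with at least 20 members and shares from 21.6% to 79.5%, with a median of 51.3%. Taf, Mrpl, Rpl, Cox and Nudt were the lowest and Cdh, Pla, Serpinb, Serpina and Krt the highest.

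Shared peaks also took different places in the order of pileups. Each of the 20569 peaks that met exactly 1 partner was given its percentile among these peaks in each list, a measure added after the data were seen, and the difference is given as D14 minus sham. The median difference was 2.91 points within 1 kb of a gene end and -2.37 farther away. Peaks at fibrotic markers had a median of 14.6 (16 peaks) and those at HOX genes -23.3 (35 peaks). The median was -14.5 at EGR, NR4A and IER genes (85 peaks) and -12.1 at AP-1 genes (57 peaks). It was -16.3 at adventitial markers and -15.0 at fibrillar collagens (29 peaks). Ranked by fold, these medians kept their signs. A high D14-only share did not always go with a higher rank of the shared peaks: cadherins had a median of -2.55 and glutamate and GABA receptors -0.936. Of 609 genes with at least 5 such peaks, 437 had a negative median. The lowest included Fosb (-44.8), Zfp36l1 (-44.4), Hoxb2 (-40.9), the phosphatase gene Dusp1 (-35.9), Fbn1, which encodes the fibrillin of elastic fibres (-35.4), Hoxb3 (-34.5), Atf3 (-33.4) and Col14a1 (-28.3). By fold these stayed negative except at Col14a1 (2.05). The highest included Ncald (27.0), Arap1 (24.7), Zfp423, a factor of mesenchymal and fat progenitor cells (23.5), the calcium-responsive factor Nfatc2 (21.3), Col18a1 (18.6), the Hippo effector Tead1 (17.9) and Plod2, which modifies collagen for crosslinking (16.1). By fold the difference was -11 at Ncald and -7.31 at Tead1, and it stayed positive at the others named.

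Some single peaks stood far apart in that order. A peak assigned to Ccdc97, Hnrnpul1 and Tgfb1 alike had a pileup of 24 in sham and 108 at D14, 61.6 points higher. At Il1rl1, the IL-33 receptor gene, a peak went from 20 to 108 (71.8 points) and at the heparan sulfatase gene Sulf1 from 18 to 106 (73.0 points). In the other direction a Jun peak had 64 in sham and 32 at D14 (-66.5 points), an Irf1 peak 50 and 20 (-65.2), a peak at Il1r2, the decoy receptor of IL-1, 49 and 16 (-65.6), and a Rad51b peak 132 and 48 (-67.7). In all 144 shared peaks ranked at least 50 points higher at D14 and 158 at least 50 points lower.

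Among D14-only peaks at named coding genes the highest folds were 24.5 inside Shank2 (chr7:144417617-144418202, pileup 110), 21.2 between Cnga1 and Nipal1, 21.1 at Ska1 and Cxxc1, 20.6 at Ndufab1 and Palb2, and 20.2 at Vsig2 and Nrgn and at Mlph. Kif3c, a kinesin gene, followed with 20.1. Other D14-only peaks of this height were at no named coding gene: a fold of 24.4 at chr9:61012893-61013557, 23.3 at chr12:20920829-20921519 and 21.0 at chr8:89663692-89664288, all more than 100 kb from any annotated gene end, and 21.7 at chr5:109690609-109691252. Within the sham list the highest sham-only folds were 8.31 at Ms4a6b and Ms4a4d, 8.17 at Stard13, 8.15 at Ablim1, 7.87 at Rad51b and 7.79 at Ntrk2. The highest shared D14 folds were 59.8 at Tspan14 and 59.3 at Zbtb18, where sham had 22.1. Folds of the 2 lists come from separate inputs and depths and were read within each list.

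Promoter sequences were available for 20084 starts of 16456 coding genes. Peaks of both lists met 8886 of them, D14 alone 2107 (10.5%), sham alone 40 (0.199%) and neither 9051. The RUNX core stood in 20.1% of promoters met by both lists, 21.9% of those met at D14 alone, 17.5% of those met in sham alone and 22.8% of those met by neither, with 21.5% of all, so its share was near the same in each. The ETS core stood in 33.2%, 16.7%, 5.00% and 5.88% in the same order (19.1% of all). CpG content went the same way, with a median of 24, 18, 6 and 4 CpG per promoter, but among promoters with at least 15 CpG the ETS shares were still 35.2%, 18.3% and 13.0% for both lists, D14 alone and neither. The SP and KLF box CCGCCC stood in 72.9%, 61.3%, 35.0% and 18.4% (47.0% of all), and the cyclic AMP element TGACGTCA in 4.01%, 1.99%, 0% and 0.707%. The AP-1 site TGANTCA went the other way, at 4.04%, 6.64%, 5.00% and 10.1%. Every motif was searched on both strands. These shares describe 300 bases at gene starts, and the distal peaks, which make up most of the D14-only set, were not searched.

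Among 1136 microRNA genes, 423 had a sham peak and 637 a D14 peak within the gene plus 10 kb, with 220 having a D14 peak and no sham peak (19.4%) and 6 a sham peak and no D14 peak (0.528%). The loci named here were chosen after their values were seen, and the genes of a cluster share peaks. Mir21a, whose product is abundant in fibrotic lung, had 2 sham and 9 D14 peaks, 7 of them D14-only and 5 at equal length, with a highest fold of 8.32 and 10.8. Mir34a, a p53 target, had 0 and 4 with 2 at equal length. The cluster of Mir23b, Mir27b and Mir24-1 on chromosome 13 had 0 and 4 with 0 at equal length, whereas the related cluster of Mir23a, Mir27a and Mir24-2 on chromosome 8 had 13 and 9, with 5 sham-only and 1 D14-only. The mature products are shown with the seed, bases 2 to 8, in capitals, since the related clusters make near-identical microRNAs.
miR-21a-5p: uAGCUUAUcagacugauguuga
miR-34a-5p: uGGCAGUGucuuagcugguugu
miR-27a-3p: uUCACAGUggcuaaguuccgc
miR-27b-3p: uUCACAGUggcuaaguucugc
miR-23a-3p: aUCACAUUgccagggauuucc
miR-24-3p: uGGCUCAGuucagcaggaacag
The coordinates on GRCm38.p6 are chr11:86584120-86584141 (minus) for miR-21a-5p, chr4:150068473-150068494 (plus) for miR-34a-5p, chr8:84208727-84208747 (plus) for miR-27a-3p, chr13:63300760-63300780 (plus) for miR-27b-3p and chr8:84208563-84208583 (plus) for miR-23a-3p. miR-27a-3p and miR-27b-3p have the same seed, and miR-24-3p is made from both clusters. The pair of clusters thus shares seeds while the peaks beside them differed: the chromosome 8 cluster had peaks in both lists, and the chromosome 13 cluster at D14 alone.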

How the data were processed

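Runx1 ChIP and input libraries of sham and D14 lung fibroblasts were compared through the deposited peak lists, 1 ChIP library per condition. BWA, SAMtools and MACS2 were used with build mm10, per the submitters' processing notes. Per the file headers, MACS 2.0.10.20120913 called each ChIP library against its own input at a q cutoff of 0.01, with nothing pooled and the deeper data set of each pair scaled down. The authors' lists give per peak the pileup (a signal height), the fold enrichment (a ratio to the local background) and −log10 of the p and q values, per the file headers. These values were used only to describe, rank or filter peaks within a list.

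Overlaps (at least 1 bp) were computed on chromosomes 1 to 19 with Python 3.11.15, pandas 2.3.3, NumPy 2.4.6 and SciPy 1.17.1, and plotted with matplotlib 3.10.9. Genes are RefSeq models on GRCm38.p6, with a peak assigned to each gene whose body plus 10 kb it met. Equal length means the 24611 highest D14 pileups, ties broken by −log10 p. Promoter and microRNA sequences are from RefSeq. The overlap and family counts were tested on simulated peak lists. Genes named are those with the most D14-only or sham-only peaks, the highest folds or the largest differences at equal length, the RUNX genes, and up to 4 (D14-only) and 2 (sham-only) members of each family; others, such as Smad3, Tgfb1, Fos or Dusp1, were chosen after their values were seen. Some results are not reported here. Promoters printed are up to 3 D14-only, 2 shared and 2 sham-only with the highest fold, among named genes outside chromosome 18. The gene families and lists were chosen with earlier results of these data known. Alternatives tried were the overlap rule, peak thresholds, list length, depth, merging, gene windows and motif length.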

Additional observations from a re-analysis of the deposited data

Results flagged for a closer look

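Peaks outside the chromosomes compared were present in the D14 list. It held 15 peaks on the mitochondrial genome, where the sham list held 7, and 6 peaks on chromosome Y, where the sham list held 0. Neither set entered a comparison, and with 1 library per condition the differences were not tested.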

How the results depend on the processing

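The D14-only share of 59.0% was 67.3% with 50% reciprocal overlap, 61.7% with summits within 200 bp, 64.5% at fold 5 or more, 57.7% with the D14 pileup minimum raised for depth and 57.6% with peaks under 500 bp apart merged. In the same order without the fold filter, the sham-only share of 8.39% was 26.4%, 13.8%, 8.80% and 6.62%. Genes with a D14 peak and no sham peak (2749) numbered 4428 at fold 5 or more, 1100, 1228 and 1353 at equal length by pileup, −log10 p and fold, 1229 and 1301 with 10000 and 5000 peaks, and 1798 within 50 kb. The reverse count (22) was 39, 327, 320, 387, 542, 807 and 13, and 168 with the nearest gene. At equal length the D14-only share (27.0%) was 28.6% by −log10 p, 31.9% by fold, 20.65% with 10000 peaks, 24% with 5000 and 50.1% with 1000, the last added after the data were seen; the sham-only share (25.7%) was 27.2%, 30.4%, 20.67%, 24.1% and 50.1%. The share of D14-only peaks near gene ends (13.1%) was 16.1% with reciprocal overlap, 14.1% with summits, 13.6% at −log10 q of 5 or more, 21.0% at fold 5 or more, 10.2% merged and 20.8% within 2.5 kb. The median family share (56%) was 24.8%, 25.8% and 28.6% at equal length by pileup, −log10 p and fold, and 17.9% and 20.9% with 10000 and 5000 peaks. The longer motif TGTGGTTT or TGCGGTTT stood in 2.09% of D14-alone promoters (6-base core 21.9%) and 1.43% of those met by both lists (20.1%).

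D14 minus sham peaks turned sign at Hoxa3 (-4 to 1 with the gene body alone), Rtn2 (1 to -2 with the body alone, -6 within 2.5 kb, -5 by nearest gene and -20 at equal length), Btg2 (-6 to 1 within 50 kb) and Cbfb (3 to -1 at equal length). Of 144 values for 24 genes under 6 settings, 84 were close to the full-list value (within a factor of 1.5), 53 were farther away without turning sign and 7 turned sign. The fibrotic markers lay above the median family in 15 of 15 settings (40% to 87.7%), as did alveolar markers, cadherins and glutamate and GABA receptors in 14 of 14 and WNT genes in 16 of 16; EGR, NR4A and IER genes in 0 of 16, and AP-1 genes in 1 of 16 (0% to 66.2%). The cause of these shifts was not tested.

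Single libraries limit every statement: replicate spread is unknown, so no difference between conditions can be set against it. The D14 ChIP library was deeper, and low peaks make up most of the D14-only set, so absence of a sham peak means not detectable at that depth. No paired analysis was possible because each condition has 1 ChIP library and its peak lists give no replicates to block.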
